A study of Mus musculus with 6 samples.

Results

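The normal distal limb bud tip was described from the 3 control libraries of a mouse series of 6, chosen by their labels alone and with no use of measured values. Each control library was a pool of distal tips from 2 embryos of the same stage, and the pools stood at 37, 38 and 39 somites, with 1 pool at each stage. The control embryos carried the conditional allele R26Meis2a-IRES-EYFP on both chromosomes and no HoxB6CreER, so the transgene was present but had no Cre to switch it on, and the embryos were not wild type. Their mothers received 0.8 mg of 4-hydroxytamoxifen in the peritoneum at embryonic day 8.3, as did the mothers of the other group. In the wider study the other 3 libraries came from embryos of the same 3 stages that also carried HoxB6CreER and overexpressed Meis2, and they enter here in a single alternative fit of stage. The labels name neither fore- nor hindlimb, and a bulk tip mixes mesenchyme, ectoderm, vessels and blood.

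At this stage the limb bud is a sac of proliferating mesenchyme under an ectodermal jacket, and the ectoderm is thickened at its rim into the apical ridge. The ridge secretes FGFs that keep the distal mesenchyme growing and undifferentiated, a posterior group of cells secretes Sonic hedgehog, and the 5' genes of the Hoxa and Hoxd clusters mark the future hand and foot plate. Proximal cells are exposed to retinoic acid and express Meis genes, which distal cells shut off.

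Levels are given as CPM, the read count scaled to the effective library size, in the order of the 37-, 38- and 39-somite pools. Where the levels of different genes are set side by side they are divided by transcript length and given as CPM per kilobase, with the longest principal transcript as the length. Errors are SDs over the 3 pools (n = 3), and the CV is the SD as a percentage of the mean. The libraries held 10605770, 11542191 and 8362853 recovered reads, so that 3 reads, the upper limit that a count of 0 allows, amount to 0.284, 0.262 and 0.359 CPM. These limits cover counting error only. The 7 genes taken as markers of limb mesenchyme were all present, led per kilobase by the homeobox genes Prrx1 and Msx1 and the bHLH factor Twist1, and the 11 apical ridge markers were present as well. Of 12 muscle markers 1 had a row, the acetylcholine receptor subunit Chrna1 at 6.535, 4.54 and 3.71 CPM.

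The table of 12065 genes had a median level of 32.7 CPM, or 11.2 CPM per kilobase over the 11751 genes with a length. A mean of at least 100 CPM was reached by 2464 genes (20.4%), a mean of at least 1000 CPM by 82, and 2752 genes lay under 10 CPM. By share of reads the highest 10 genes were Eef1a1 (a translation elongation factor), mt-Co1, Hspa8, mt-Co2, Hsp90ab1, Ptma, mt-Co3, mt-Cytb, Npm1 and mt-Nd1, and together they took 4.80% of the reads. Eef1a1 stood at 10343, 9192 and 9687 CPM. The chaperone gene Hspa8 stood at 5177, 3046 and 4877 CPM, a CV of 26.4% against a counting CV of 0.484%, with the dip in the 38-somite pool. Just below these came the imprinted genes Mest, at 2987 ± 105 CPM, and H19, at 3505, 2536 and 2290 CPM.

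Over the 9313 genes of at least 10 CPM the median CV between pools was 6.54%, with an interquartile range of 4.13% to 9.67%, beside a median counting CV of 4.49%. A CV above 25% was found in 147 of them (1.58%). Of the 588 genes in the 29 lists of limb factors, signals, receptors and matrix genes, 449 had a row. These 449 had a median of 34.9 CPM, 98 of them (21.8%) reached 100 CPM, and the 351 of at least 10 CPM had a median CV of 9.07%. The plot of level by rank and of spread by level shows where leading members sit.

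**Figure D1:**
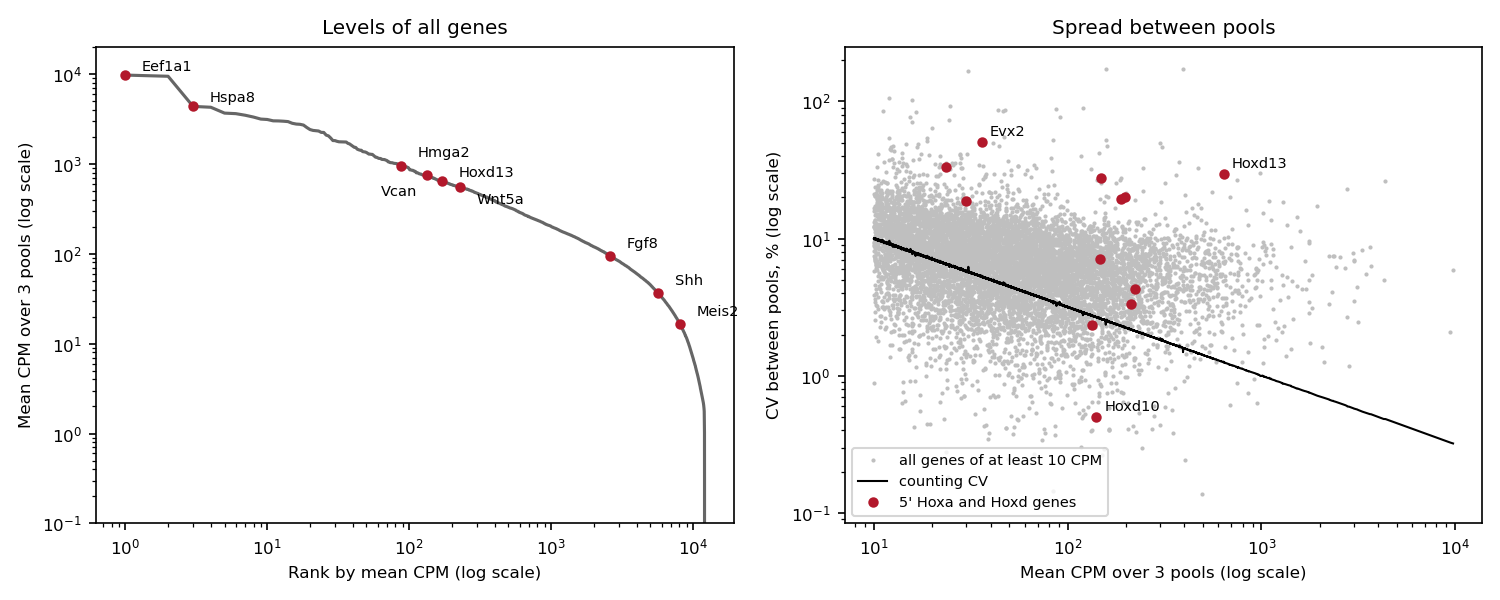
Left, mean CPM over the 3 control pools against rank for all genes (both axes log), with named genes in red; the curve is cut at 0.1 CPM. Right, CV between pools against mean CPM for genes of at least 10 CPM (grey, log axes), with the counting CV as a black line and the 5' Hoxa and Hoxd genes in red: Evx2 and Hoxd13 lie well above the line and Hoxd10 below it.

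Because each pool had its own stage, each gene was also fitted with a slope per somite (limma on log2(CPM + 1), two-sided, Benjamini-Hochberg adjusted over all genes, called under 0.05). Of all genes tested, 128 of 12065 genes were called, a background of 1.06%, with 76 higher (0.63%) and 52 lower (0.431%) at later stages. Of the 449 listed genes 26 were called (5.79%), 12 higher and 14 lower. These lists were chosen with earlier results of these data known, so the difference from the background is no test of the lists. With a background of 1.06%, 0 calls in a short list is close to that share. Among the 9313 genes of at least 10 CPM, called or not, 13.1% rose and 13.6% fell in stage order, so order alone is common. With 1 pool per stage, stage and pool cannot be told apart, and the fit leaves 1 residual degree of freedom per gene, so each p rests on a spread pooled over genes. Values of 3 further kinds moved with the slopes. The female transcript Xist fell and the 4 Y-linked genes listed rose, and both kinds were present in every pool. Red-cell markers were in sum lowest in the 39-somite pool. The trunk mesoderm markers, of which 3 of 11 had a row, summed to 34.4, 25.1 and 14.7 CPM, and 2 of the 3 fell. The part of these in the slopes below was not tested. In bulk tips fewer cells of a type and less RNA per cell cannot be told apart.

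The 5' Hoxa and Hoxd genes, with their neighbours Evx1 and Evx2, were all 12 present, and 5 of the 12 rose with somite number and 0 fell. Over all genes 0.63% were called higher and 0.431% lower. Hoxd13, needed for digit formation, stood at 432.5, 677 and 803 CPM. It was the highest of the list per kilobase, at 257 ± 75.9 CPM per kilobase, and took 24.6% of the list's summed level. Each later pool was higher than the one before, a log2 slope of 0.45 ± 0.08 (SE) per somite (limma adjusted p = 9.29e-06). Its paralogue Hoxa13, which acts with it in the hand and foot plate, stood at 101, 168 and 175.5 CPM, with the low value in the 37-somite pool (slope 0.40 ± 0.08, limma adjusted p = 0.000162). Evx2, the homeobox gene next to Hoxd13, stood at 16.2, 39.96 and 51.7 CPM and had the steepest rise among the listed genes, 0.81 ± 0.09 per somite (limma adjusted p = 1.93e-14). Evx1, at the end of the Hoxa cluster, stood at 14.9, 25.5 and 30.3 CPM (slope 0.49 ± 0.10, limma adjusted p = 0.000329). Hoxa13 and Evx1 were not called with DESeq2 (adjusted p = 0.167 for Hoxa13). Both were called over all 6 libraries (limma adjusted p = 0.0159 and 0.0467).

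The fifth, Hoxa11as, is transcribed opposite Hoxa11. It stood at 161, 189 and 239 CPM (limma adjusted p = 0.0301), lost its call with edgeR on reads (adjusted p = 0.138), and cannot be separated from Hoxa11 by a kit that does not mark strand. Hoxa11 itself was counted at 157, 146 and 136 CPM. The rest of the list was steadier. Hoxd10 stood at 141, 139.6 and 139.9 CPM, a CV of 0.5015%, below its counting CV of 2.68%, and Hoxd11 at 212, 220.1 and 206 CPM. Hoxd12 stood at 161, 174 and 230.3 CPM and was not called. Hoxa10 stood at 233, 218 and 215 CPM and Hoxa9 at 129.6, 133.5 and 136 CPM. Hoxd9, the 3'-most Hoxd gene of the list, stood at 34.7, 30.8 and 23.7 CPM, highest in the youngest pool, and was not called. Over the list the median CV was 19.1%. The per-kilobase order below Hoxd13 depended on the length used: Hoxd11 stood at 191 ± 6.43 CPM per kilobase with its principal transcript and at 50.5 with all its exons joined.

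Promoter windows are shown for the pairs Evx2 and Hoxd13 (chromosome 2) and Hoxa13 and Evx1 (chromosome 6), all 4 called higher with limma. The window of Shox2 on chromosome 3 is shown because this gene fell the most clearly of the transcription factors. All are from RefSeq (GRCm38.p6), from 250 bases before to 50 after the start, 5′ to 3′ on the gene's own strand, and the windows of the pairs lie 8.2 and 52.1 kb apart. Capitals mark exact matches on either strand to the TATA box letters TATAAA, to the GC box letters GGGCGG and to the CCAAT box by its own letters, some of which overlap, and 13.6%, 35.7% and 37.4% of the 32851 windows of the same length hold each.
Evx2, chr2:74659508-74659807, minus strand: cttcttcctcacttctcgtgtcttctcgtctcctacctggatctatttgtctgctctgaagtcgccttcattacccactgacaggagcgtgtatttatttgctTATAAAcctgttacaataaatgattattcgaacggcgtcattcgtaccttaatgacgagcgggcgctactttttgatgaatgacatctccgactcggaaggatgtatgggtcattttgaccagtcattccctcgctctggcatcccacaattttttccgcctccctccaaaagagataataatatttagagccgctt
Hoxd13, chr2:74667975-74668274, plus strand: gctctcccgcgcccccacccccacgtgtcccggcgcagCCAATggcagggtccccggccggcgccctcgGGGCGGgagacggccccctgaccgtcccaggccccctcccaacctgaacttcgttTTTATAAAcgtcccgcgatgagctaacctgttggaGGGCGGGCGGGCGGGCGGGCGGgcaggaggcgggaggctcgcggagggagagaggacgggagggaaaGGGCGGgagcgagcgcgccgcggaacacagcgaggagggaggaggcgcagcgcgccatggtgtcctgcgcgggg
Hoxa13, chr6:52260831-52261130, minus strand: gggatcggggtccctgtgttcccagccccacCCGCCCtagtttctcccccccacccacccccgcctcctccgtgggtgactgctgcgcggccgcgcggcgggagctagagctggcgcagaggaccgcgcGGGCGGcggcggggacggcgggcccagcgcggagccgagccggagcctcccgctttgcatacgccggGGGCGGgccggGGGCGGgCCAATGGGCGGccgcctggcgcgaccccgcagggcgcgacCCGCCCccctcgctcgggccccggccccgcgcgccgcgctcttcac
Evx1, chr6:52313248-52313547, plus strand: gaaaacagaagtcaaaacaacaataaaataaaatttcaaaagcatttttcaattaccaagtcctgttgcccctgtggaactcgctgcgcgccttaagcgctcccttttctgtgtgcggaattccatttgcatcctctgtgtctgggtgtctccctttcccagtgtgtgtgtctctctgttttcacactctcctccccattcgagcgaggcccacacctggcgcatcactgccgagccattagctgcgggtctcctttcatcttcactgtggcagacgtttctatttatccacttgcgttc
Shox2, chr3:66981722-66982021, minus strand: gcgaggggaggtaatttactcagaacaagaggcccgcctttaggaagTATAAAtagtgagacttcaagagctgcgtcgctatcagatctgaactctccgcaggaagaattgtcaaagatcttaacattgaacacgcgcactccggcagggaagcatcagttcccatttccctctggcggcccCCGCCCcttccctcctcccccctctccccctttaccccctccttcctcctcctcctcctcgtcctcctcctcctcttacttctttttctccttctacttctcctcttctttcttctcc
The Hoxd13 and Hoxa13 windows were 74.3% and 81.0% GC and held 7 and 6 matches to GGGCGG, while Evx2 and Evx1 were 44.3% and 48.7% GC and held 0. TATAAA was matched in Evx2, Hoxd13 and Shox2. A match describes the letters in the window and is no evidence of use.

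Of the other Hox genes 17 of 30 had a row, and their levels were lower. Per kilobase their median was 4.315, against 75.8 for the 5' list. Hoxd8 led with its short principal transcript, at 51.8 ± 7.84 CPM per kilobase, but stood at 10.5 with all exons joined, where Hoxc10 led at 23.1. Hoxc10, a gene of the posterior trunk and hindlimb field, stood at 38.3, 52.2 and 41.7 CPM. Hoxd4, a 3' gene of the Hoxd cluster, stood at 15.5, 14.5 and 7.785 CPM and fell in the pooled fit (-0.46 ± 0.12 per somite, limma adjusted p = 0.0141), but not with DESeq2 (adjusted p = 1) or over all 6 libraries (adjusted p = 0.144). The highest CV of the list was that of Hoxd3, at 11.2, 5.76 and 5.99 CPM, which has a near-identical copy.

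Among the factors of the limb mesenchyme, 46 of 48 had a row. Hmga2, a chromatin protein of embryonic growth, was the highest per kilobase, at 257 ± 15.1 CPM per kilobase, and ranked 87 of all genes by CPM, with 949, 1014 and 902 CPM. Prrx1, a homeobox gene of limb mesenchyme, followed at 84.9 ± 11.1 CPM per kilobase and read 460.0, 444 and 358 CPM, with the 39-somite pool lowest. Msx1, a homeobox target of BMP signalling, stood at 144.5, 148 and 159.8 CPM and 77.9 ± 4.16 CPM per kilobase, so that its range overlapped that of Prrx1. Twist1 stood at 65.4 ± 4.29 CPM per kilobase, Sall1, a zinc-finger gene of the limb and kidney, at 59.7 ± 5.48 CPM per kilobase, and Hey1, a Notch target, at 50.2 ± 6.34 CPM per kilobase. Etv5, an ETS factor induced by FGF, stood at 44.8 ± 3.04 CPM per kilobase. With the median transcript as the length, Etv5 led the list in place of Hmga2.

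Of these factors 2 rose and 3 fell with somite number, against 0.63% and 0.431% of all genes called. Among those that rose, Tcfap2b, which encodes the factor AP-2 beta, stood at 66.5, 125 and 158 CPM, higher in each later pool (slope 0.62 ± 0.08, limma adjusted p = 2.44e-11). Shox2, which is needed for the proximal limb bones, stood at 67.2, 39.3 and 26.1 CPM, lower in each later pool (slope -0.67 ± 0.09, limma adjusted p = 2.16e-10), and was also called with DESeq2 (adjusted p = 0.00113) and over all 6 libraries (adjusted p = 0.00127). The Mab-21 relatives Mab21l2 and Mab21l1 stood at 77.85, 59.9 and 42.4 CPM and at 14.2, 7.33 and 5.27 CPM, again in falling order, but lost their calls over all 6 libraries (adjusted p = 0.452 and 0.154).

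Anterior and posterior factors had 13 of 18 rows, and 3 of them fell, against 0.431% of all genes called lower. Tbx15, a T-box gene, was the highest per kilobase at 58.8 ± 5.36 CPM per kilobase, and the posterior factor Hand2, which acts upstream of Shh, followed at 45.8 ± 6.59 CPM per kilobase and 125, 95.7 and 102 CPM. Gli3, the main transcriptional repressor of the hedgehog pathway in the limb, was the steadiest of the list, at 234, 233 and 232 CPM. Its CV of 0.533% was below its counting CV of 2.08%. Gli1, a target of hedgehog signalling, stood at 82.3, 67.2 and 74.5 CPM. Tbx3 and Tbx2, T-box repressors of the bud margins, stood at 33.15, 17.8 and 19.5 CPM and 13.1, 4.97 and 6.35 CPM, with the 37-somite pool above both later pools, which were close. Their limma adjusted p-values were 0.0315 and 0.0478, and neither was called over all 6 libraries (adjusted p = 0.244 and 0.381).

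The anterior homeobox gene Alx4 stood at 6.44, 7.33 and 7.665 CPM. Osr2, a zinc-finger gene, stood at 2.94, 2.18 and 0.2395 CPM, the last from 2 reads (limma adjusted p = 0.00858; DESeq2 adjusted p = 1).

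Genes that tell the limb types apart were counted together. The hindlimb genes Pitx1 and Tbx4 stood at 22.3 ± 0.741 CPM per kilobase and 21.1 ± 1.72 CPM per kilobase, with ranges that overlapped, and the forelimb gene Tbx5 at 8.57 ± 1.86 CPM per kilobase, lower in every pool. Tbx5 read 42.15, 28.6 and 30.5 CPM, highest in the 37-somite pool. Isl1, an early hindlimb gene, read 3.79, 1.92 and 1.08 CPM, from 40, 22 and 9 reads, and was not called.

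The TALE homeobox genes, partners of Hox proteins on DNA, had 9 of 13 rows. Pbx2 led at 48.3 ± 1.57 CPM per kilobase, followed by the repressors Tgif1 at 39.8 ± 2.16 CPM per kilobase and Tgif2 at 34.8 ± 2.03 CPM per kilobase. Meis2, the gene overexpressed in the other group, stood at 20.65, 15.3 and 13.8 CPM, or 5.89 ± 1.29 CPM per kilobase, and Meis1 at 14.3, 12.0 and 11.9 CPM, or 3.805 ± 0.407 CPM per kilobase. Pbx3 read 24.8, 22.6 and 19.2 CPM. Meis2, Meis1 and Pbx3 were each highest in the 37-somite pool and lowest in the 39-somite pool, but none was called. Of all genes of at least 10 CPM, 13.6% fell in this order. Meis2 with all its exons joined stood at 1.375 CPM per kilobase, so its place among the genes of the list depends on the length.

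Factors of the ridge and ectoderm had 14 of 19 rows, and none was called. Trp63, the p53 relative that specifies stratified ectoderm, stood at 81.1, 83.05 and 86.8 CPM and 17.8 ± 0.623 CPM per kilobase. The ridge factor Sp8 stood at 40.8, 48.0 and 38.45 CPM, and Sp6 at 47.0, 45.8 and 56.9 CPM, highest at 39 somites. Dlx3 varied the most, at 9.47, 6.46 and 12.7 CPM, without stage order. The dot plot of transcription factors shows these values by pool.

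**Figure D2:**
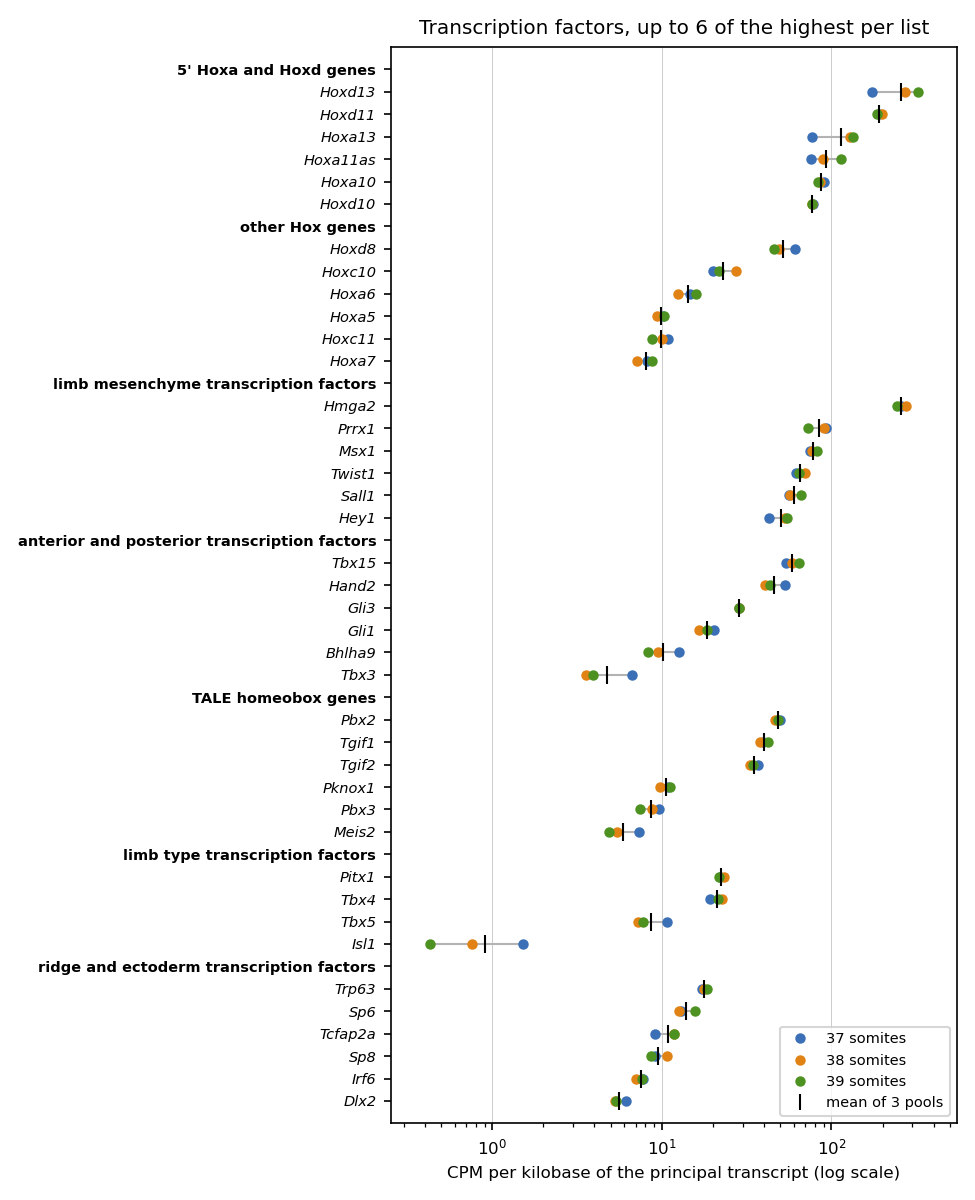
CPM per kilobase of the principal transcript (log axis) of up to 6 of the highest members of each list of transcription factors, with points for the 37-, 38- and 39-somite pools and a bar for their mean. Hoxd13 and Hmga2 lie highest, the pools separate widely for Hoxd13, Hoxa13 and Isl1, and they coincide for Hoxd10 and Gli3.

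FGF ligands had rows for 7 of 22 genes. Fgf8, the main ridge FGF, stood at 96.8, 88.55 and 98.6 CPM, and took 68.9% of the summed level of the list, at 84.7 ± 4.79 CPM per kilobase. Fgf10, the mesenchymal FGF that maintains the ridge, stood at 71.5, 72.5 and 74.0 CPM, and Fgf4, another ridge FGF, at 31.8, 29.5 and 31.0 CPM. Their CVs of 1.74% and 3.855% were below the all-gene median, and below their own counting CVs of 3.72% and 5.72%. Fgf9 and Fgf17, also made by the ridge, stood at 7.12 and 3.42 CPM on average, Fgf13 at 6.27 and Fgf15 at 2.45. Per kilobase the order was Fgf8, Fgf10, Fgf4, Fgf9, Fgf13, Fgf17, Fgf15. With the median transcript length Fgf10 came before Fgf8 (106 and 99.7 CPM per kilobase).

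Of the FGF receptors Fgfr1, the receptor of the mesenchyme, was the highest at 38.1 ± 2.77 CPM per kilobase, and read 206, 178 and 190.4 CPM. It took 51.75% of the list's summed level, which also counts the receptor adaptors Frs2 and Frs3. Fgfr2, which carries the Fgf10 signal in the ectoderm, stood at 13.8 ± 0.544 CPM per kilobase, and Fgfr3 at 1.52 ± 0.271 CPM per kilobase. Feedback genes that FGF signalling induces were all 13 present. Dusp6, a phosphatase that dampens ERK, stood at 578, 657 and 660.5 CPM, or 226 ± 16.7 CPM per kilobase, 44.1% of that list. Il17rd, a membrane inhibitor of FGF receptors, stood at 47.4 ± 2.33 CPM per kilobase, and Spry2 at 54.55, 68.3 and 82.2 CPM, in rising order but not called. No FGF ligand, receptor or feedback gene was called.

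WNT ligands had 10 of 19 rows. Wnt5a, which directs outgrowth through the non-canonical pathway, stood at 478, 561 and 603 CPM and took 63.2% of the list at 78.05 ± 9.055 CPM per kilobase. Its values increased from pool to pool but it was not called. The ectodermal ligands Wnt6 and Wnt7a stood at 14.5 ± 1.05 CPM per kilobase and 5.70 ± 1.03 CPM per kilobase, and Wnt7a, the dorsal signal, read 21.4, 18.0 and 14.85 CPM. Wnt3, which in the mouse induces the ridge, read 10.99, 9.51 and 11.4 CPM. Among the receptors, Ryk and Ptk7, which bind or transduce Wnt5a-type signals, led at 72.8 ± 4.905 CPM per kilobase and 50.2 ± 4.55 CPM per kilobase. Frizzled genes followed, with Fzd10 at 24.2 ± 0.994 CPM per kilobase, Fzd2 at 23.7 ± 3.02 CPM per kilobase and Fzd1 at 21.15 ± 1.165 CPM per kilobase, and the range of Fzd2 overlapped those of Fzd10 and Fzd1. The co-receptor Lrp6 stood at 19.2 ± 0.844 CPM per kilobase.

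Of the WNT modulators the WNT-secretion gene Wls stood at 62.3 ± 3.99 CPM per kilobase and Axin2, a read-out of canonical WNT signalling, at 18.0 ± 1.32 CPM per kilobase. The list had 20 of 25 rows, and Frzb, a secreted WNT antagonist, was the member called. It stood at 99.2, 153 and 171 CPM, lowest at 37 somites (slope 0.39 ± 0.08, limma adjusted p = 0.000218), and was not called with DESeq2 (adjusted p = 0.0807) or over all 6 libraries (adjusted p = 0.0907). Rspo2, a ridge enhancer of WNT signalling, read 32.0, 40.04 and 43.0 CPM. Rspo4 had the widest spread of the list, at 5.59, 2.01 and 1.92 CPM.

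BMP and TGF-beta ligands had 10 of 26 rows and 0 calls. Bmp4 stood at 44.15 ± 4.096 CPM per kilobase, the highest under each of the 3 lengths tried, and read 101, 85.6 and 86.95 CPM. Bmp7 stood at 22.65 ± 0.853 CPM per kilobase and Bmp2, the other classic limb BMP, at 3.88 ± 0.588 CPM per kilobase, with 11.55, 14.1 and 15.7 CPM. Gdf11, a ligand of axial patterning, stood at 23.3 ± 1.59 CPM per kilobase, overlapping Bmp7. Of the receptors, Tgfbr1 and Bmpr1a stood at 49.6 ± 2.74 CPM per kilobase and 47.7 ± 1.895 CPM per kilobase with overlapping ranges, far above Bmpr1b at 0.634 ± 0.186 CPM per kilobase, a receptor of prechondrogenic condensations.

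Among the antagonists Grem1, the secreted BMP inhibitor that links Shh and ridge FGFs, stood at 223, 209.8 and 147 CPM. The 39-somite pool was the low one (slope -0.30 ± 0.08, limma adjusted p = 0.0185), but Grem1 was not called with edgeR on reads (adjusted p = 0.138), DESeq2 (adjusted p = 0.668) or all 6 libraries (adjusted p = 0.258). Fstl1, a follistatin relative, was higher per kilobase, at 63.0 ± 2.69 CPM per kilobase, and Twsg1, a BMP-binding protein, stood at 39.4 ± 1.71 CPM per kilobase.

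Shh itself stood at 46.0, 37.25 and 26.35 CPM, lower in each later pool (slope -0.39 ± 0.09, limma adjusted p = 0.00407). It was called with edgeR on reads (adjusted p = 0.00806) but not with DESeq2 (adjusted p = 1) or over all 6 libraries (adjusted p = 0.907). The receptor Ptch1, a target of the pathway, stood at 218, 173 and 190.1 CPM, without stage order, and was not called. Smo, the signal transducer, led the list per kilobase at 57.6 ± 3.89 CPM per kilobase, with the co-receptor Gas1 at 52.85 ± 5.46 CPM per kilobase, and Ptch1 at 25.05 ± 2.96 CPM per kilobase.

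The retinoid pathway had 13 of 20 rows and 0 calls. The retinoic acid binding proteins Crabp1 and Crabp2 led at 214 ± 18.8 CPM per kilobase and 177 ± 20.9 CPM per kilobase, and read 188, 169.9 and 158 CPM and 181, 169.9 and 143 CPM. Cyp26b1, the enzyme that breaks retinoic acid down in the distal limb, stood at 372, 411.5 and 455 CPM, or 91.85 ± 9.24 CPM per kilobase. Both binding proteins had their lowest value in the 39-somite pool and Cyp26b1 its highest. Its relative Cyp26a1 stood at 1.34 ± 0.111 CPM per kilobase. Rarg led the receptors at 31.4 ± 1.52 CPM per kilobase. The synthesis genes Aldh1a1, Aldh1a2 and Aldh1a3 had no row in the table used here.

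Of the Notch genes 11 of 14 had a row. The ligand Jag1 stood at 88.8, 131 and 173 CPM, higher in each later pool (slope 0.48 ± 0.08, limma adjusted p = 1.12e-06), and was also called with DESeq2 (adjusted p = 0.000798) and over all 6 libraries (adjusted p = 0.00127). The ridge ligand Jag2 read 39.97, 31.2 and 41.0 CPM, without stage order. Dlk1, an imprinted relative of the Notch ligands, stood at 25.7, 13.2 and 13.4 CPM, with the 37-somite pool high (limma adjusted p = 0.00702), and was not called over all 6 libraries (adjusted p = 0.314). Notch3 led the receptors at 15.15 ± 1.645 CPM per kilobase, and Notch1 and Notch2 stood at 5.68 ± 0.9873 CPM per kilobase and 8.82 ± 0.523 CPM per kilobase.

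Growth factors outside these families had 31 of 33 rows. Igf2, the imprinted fetal growth factor, stood at 2321, 1821 and 1679 CPM, or 489 ± 85.0 CPM per kilobase, and has a near-identical copy in the annotation. Mdk, a heparin-binding factor, stood at 429 ± 24.1 CPM per kilobase, a range that overlapped with that of Igf2, and it led when all exons were joined. Igfbp5 and Igfbp4, IGF binding proteins, stood at 58.7 ± 4.42 CPM per kilobase and 70.6 ± 5.92 CPM per kilobase. The chemokine Cxcl12 stood at 16.0, 15.9 and 5.75 CPM, low in the 39-somite pool (slope -0.67 ± 0.12, limma adjusted p = 1.06e-05), but was not called with DESeq2 (adjusted p = 1) or over all 6 libraries (adjusted p = 0.304).

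Guidance genes were led by Epha4, a limb Eph receptor that steers motor axons, at 391, 481 and 521 CPM and 73.4 ± 10.5 CPM per kilobase, and by the semaphorin receptor Nrp2, at 425, 437 and 513 CPM and 72.15 ± 7.49 CPM per kilobase. Both had their highest value in the 39-somite pool and neither was called. Ephb4 stood at 32.1 ± 2.015 CPM per kilobase and the ephrin Efnb1 at 25.8 ± 1.80 CPM per kilobase. Robo2, a Slit receptor, stood at 50.4, 33.85 and 29.0 CPM, lower in each later pool (slope -0.39 ± 0.09, limma adjusted p = 0.00409). It was called over all 6 libraries (adjusted p = 0.0479) but not with DESeq2. The dot plot of ligands and receptors gives the pools of the leading members.

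**Figure D3:**
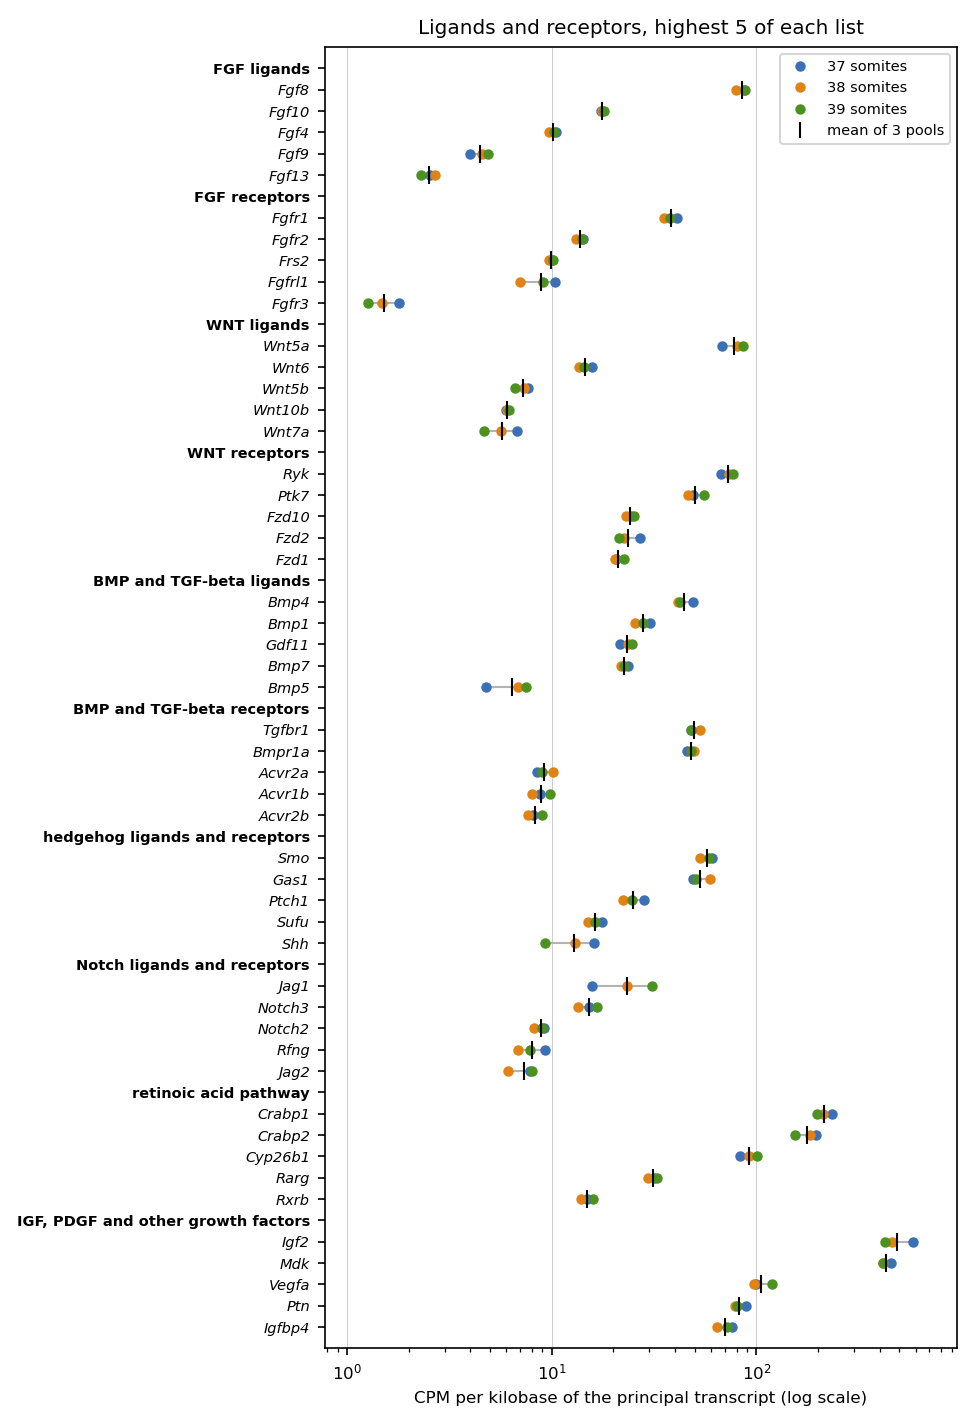
CPM per kilobase of the principal transcript (log axis) of the highest 5 members of each list of ligands, receptors and retinoid genes, with points for the 37-, 38- and 39-somite pools and a bar for their mean. Igf2 and Mdk lie highest, Fgf8 and Wnt5a stand apart from the rest of their families, and the pools separate for Shh and Jag1.

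Matrix glycoproteins and proteoglycans had 36 of 44 rows. Vcan, the large chondroitin sulfate proteoglycan of embryonic mesenchyme, stood at 777, 751 and 703 CPM, and Gpc3, a membrane heparan sulfate proteoglycan, at 797, 664 and 647 CPM. Per kilobase they stood at 320.4 ± 16.1 CPM per kilobase and 317 ± 37.2 CPM per kilobase, with overlapping ranges. The Vcan value depends on its spliced forms: with all exons joined it was 51.4 CPM per kilobase and Gpc3 was 261. Sdc1, a syndecan, stood at 77.1 ± 4.07 CPM per kilobase, Mfap2, a microfibril protein, at 71.0 ± 6.58 CPM per kilobase, and Fn1, fibronectin, at 51.0 ± 4.46 CPM per kilobase. The latent TGF-beta binding protein Ltbp1 was the one member called. It stood at 43.6, 76.6 and 86.5 CPM, lowest at 37 somites (slope 0.49 ± 0.09, limma adjusted p = 4.74e-06). Ltbp1 was also called over all 6 libraries (adjusted p = 0.0159) but not with DESeq2 (adjusted p = 0.0817).

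The collagens were led by those of the basement membrane. Col4a1 stood at 406.5, 357 and 406 CPM, or 58.9 ± 4.31 CPM per kilobase, its partner chain Col4a2 at 35.65 ± 3.14 CPM per kilobase, and Col18a1 at 45.95 ± 4.175 CPM per kilobase. Among the fibrillar collagens, Col3a1 stood at 240.0, 175 and 143 CPM, lower in each later pool (slope -0.37 ± 0.08, limma adjusted p = 0.000498), and it was called by DESeq2 (adjusted p = 0.0268) and over all 6 libraries (adjusted p = 0.0165). It has a near-identical copy in the annotation. Col5a2 stood at 181, 180.4 and 194 CPM, Col1a2 at 127, 148 and 148 CPM and Col1a1, its partner in type I collagen, at 13.9, 14.5 and 12.0 CPM. The widest spread was in Col6a3, a chain of microfibrillar type VI collagen, at 27.3, 4.97 and 14.85 CPM from 288, 57 and 124 reads. It was called (limma adjusted p = 0.0333) though its lowest value was at 38 somites, and not with a pseudocount of 0.1, DESeq2 or all 6 libraries.

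Laminins and their partners had 12 of 15 rows. Lamb1 stood at 50.55 ± 2.045 CPM per kilobase, Nid1 at 41.8 ± 4.11 CPM per kilobase, Agrn at 30.55 ± 2.47 CPM per kilobase and Lamc1 at 25.8 ± 1.30 CPM per kilobase. Lama2, the laminin chain of muscle basement membrane, stood at 12.0, 12.8 and 22.8 CPM, high in the 39-somite pool (limma adjusted p = 0.0132), and lost its call over all 6 libraries (adjusted p = 0.79). The collagen chaperone Serpinh1 and the prolyl hydroxylase subunit P4hb led the matrix enzymes at 237 ± 7.66 CPM per kilobase and 206 ± 7.84 CPM per kilobase, and the gelatinase Mmp2 stood at 66.3 ± 8.55 CPM per kilobase. Of the integrins, Itgb1 made up 48.5% of the summed level, at 138 ± 6.34 CPM per kilobase. Itga8, a receptor for nephronectin, stood at 37.0, 52.5 and 57.5 CPM (slope 0.31 ± 0.09, limma adjusted p = 0.0447), and was not called with edgeR on reads (adjusted p = 0.0731).

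**Figure D4:**
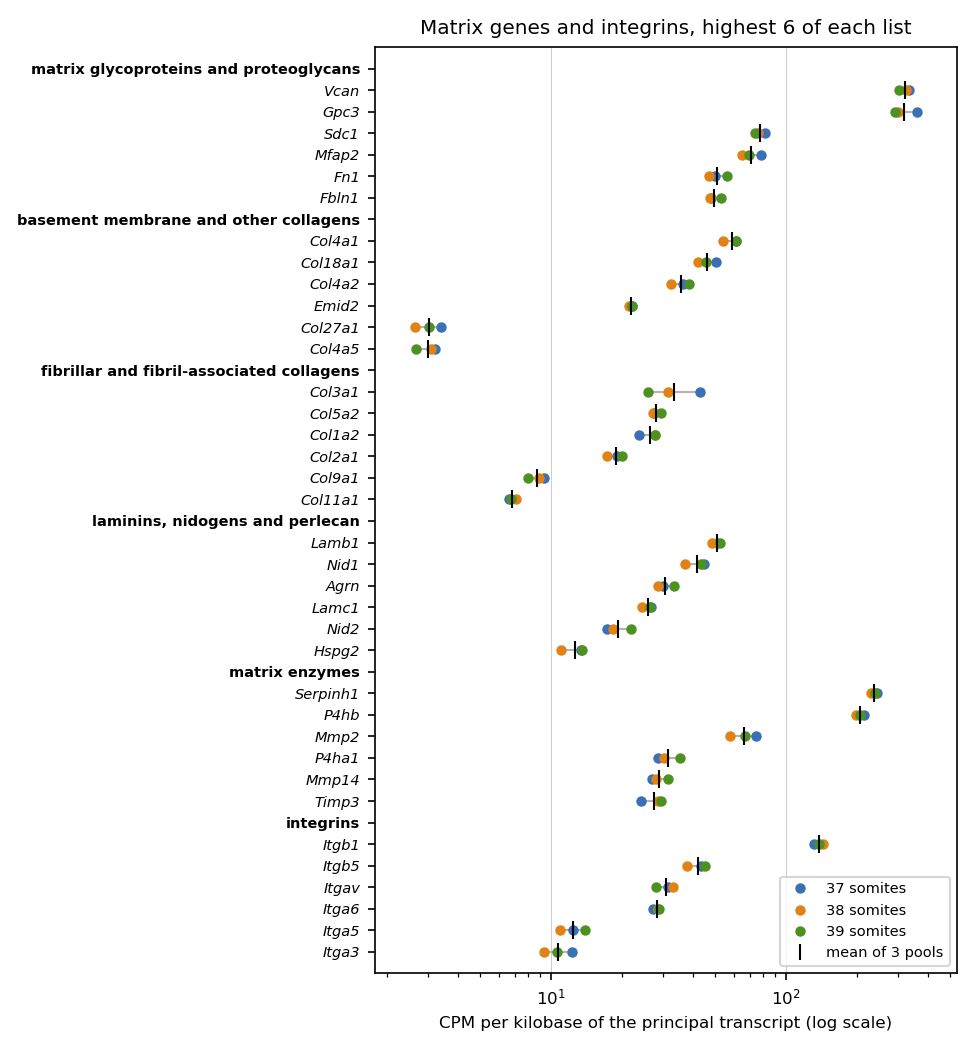
CPM per kilobase of the principal transcript (log axis) of the highest 6 members of each matrix list and of the integrins, with points for the 37-, 38- and 39-somite pools and a bar for their mean. Vcan, Gpc3, Serpinh1 and P4hb lie highest, and Col3a1 shows the widest separation of pools among those drawn.

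Cartilage and tendon genes had 12 of 26 rows and 0 calls. Col2a1, the main collagen of cartilage, stood at 97.55, 88.55 and 102 CPM, and Hapln1, the link protein of cartilage matrix, at 104, 106 and 88.0 CPM. Sox9, the master factor of chondrocytes, stood at 21.8, 20.7 and 13.2 CPM, lowest at 39 somites, and the tendon factor Scx at 1.99, 3.84 and 2.395 CPM. Aggrecan (Acan) had no row in the table used here.

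Markers of other cells were present at several levels. Ectoderm markers had 16 of 19 rows with a summed level of 615, 572 and 587 CPM, led per kilobase by Epcam (36.7 ± 1.39 CPM per kilobase) and Krt5 (35.8 ± 3.21 CPM per kilobase), both epithelial genes. Endothelial markers had 16 of 16 rows and summed to 302, 287 and 323 CPM, Kdr, the VEGF receptor, among them at 51.3, 51.1 and 58.0 CPM. Macrophage markers had 4 of 12 rows and summed to 16.4, 14.1 and 14.1 CPM. Nerve and neural crest markers had 6 of 14 rows, 76.05, 67.35 and 65.75 CPM in sum, of which Gap43, a growth cone protein, made up 30.4 CPM. No marker of these 4 kinds was called. Stress genes of dissection had 7 of 12 rows, 514, 490.5 and 501.5 CPM in sum. Most of that sum was the highest member, at 358.6 CPM on average, while the median member stood at 8.47 CPM. The heat-shock gene Hsph1 led per kilobase, and the immediate early gene Egr1 stood at 3.50, 1.57 and 2.635 CPM.

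Red-cell markers had 15 of 16 rows and summed to 3787, 3384 and 2596 CPM, and 12 of the 15 were lowest in the 39-somite pool. The share of all genes lowest in that pool was not counted. These markers come from the same cells and are not independent. The embryonic globin Hbb-y stood at 1437, 1410 and 1011 CPM and was not called. The embryonic globins Hba-x, at 691, 534 and 451 CPM, and Hbb-bh1, at 811, 706 and 539 CPM, fell (limma adjusted p = 0.0133 and 0.0253), but neither was called over all 6 libraries (adjusted p = 0.95 and 0.578). Hbb-bh1 was also not called with DESeq2 (adjusted p = 0.063) or with a pseudocount of 0.1. Of the trunk mesoderm markers, Meox2 and Meox1, homeobox genes of the somite, stood at 24.0, 17.4 and 8.50 CPM and 8.05, 5.06 and 2.755 CPM and fell (limma adjusted p = 2.18e-07 and 0.00433), of which Meox1 was also called over all 6 libraries (adjusted p = 0.0372) and Meox2 was not (adjusted p = 0.055). Neither was called with DESeq2 (adjusted p = 0.315 and 1).

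The sex-linked genes differed between pools. Xist, the RNA that coats the inactive X chromosome, stood at 1276, 1004 and 682 CPM (limma adjusted p = 1.21e-05). The Y-linked genes Ddx3y, at 28.7, 58.2 and 61.6 CPM, Eif2s3y, at 21.4, 39.3 and 44.2 CPM, Kdm5d, at 25.3, 44.6 and 42.3 CPM, and Uty, at 14.0, 27.0 and 28.0 CPM, were all lowest in the 37-somite pool and close in the others. They were called (limma adjusted p = 7.79e-07, 2.51e-05, 0.0133 and 0.000664), so the genes called in this fit include sex-linked genes. None of these 5 was called over all 6 libraries (adjusted p from 0.252 to 0.338), and with DESeq2 Xist alone of them was called (adjusted p = 2.61e-06). The Y-linked slopes were nevertheless larger over all 6 libraries. Ddx3y, Eif2s3y, Kdm5d and Uty had 1.888, 1.713, 1.64 and 1.614 there, and 0.54, 0.51, 0.36 and 0.48 in the controls. Xist had -1.691 there. That fit therefore does not remove the sex-linked difference between pools, whose part in other slopes was not tested.

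Beyond the lists, the genes with the widest spread among protein-coding genes without a near-identical copy were Col6a3, Evx2, Shox2, Cxcl12 and Meox2, then Enpp1, Polr2b, Gsn, Dcx and Ano1. Enpp1, a pyrophosphate-producing enzyme, stood at 7.01, 11.4 and 18.3 CPM, and Polr2b, a subunit of RNA polymerase II, at 7.20, 11.25 and 18.0 CPM. Gsn, an actin-severing protein, stood at 7.01, 12.9 and 18.0 CPM, and the microtubule protein Dcx at 43.5, 29.1 and 18.3 CPM, all 4 in stage order. Ano1, a chloride channel, stood at 15.4, 7.33 and 8.74 CPM without stage order and was not called. By p, the named genes with the clearest rise were Evx2, Rpl34, Tcfap2b, Ahcy and mt-Rnr2, and those with the clearest fall Shox2, Meox2, Dcx, Cxcl12 and Dnm3os. Rpl34 and Ahcy have near-identical copies. The matches of Dnm3os were the microRNA genes Mir214 and Mir199a-2, over 110 bases each. Ahcy stood at 75.6, 30.2 and 167 CPM, lowest at 38 somites. mt-Rnr2, a mitochondrial ribosomal RNA that polyA selection captures in part, stood at 262, 341.5 and 527 CPM.

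Of the 128 genes called, 90 moved in stage order in all 3 pools and 38 did not, 50 had a near-identical copy and 28 were pseudogenes. Of the 26 listed genes called, 21 moved in stage order. With DESeq2 on reads 6 of the 26 were called, namely Evx2, Hoxd13, Jag1, Tcfap2b, Shox2 and Col3a1. Over all 6 libraries with genotype as a term 11 were called, which added Evx1, Hoxa13, Hoxa11as, Ltbp1 and Robo2 to those 6. The plot of called genes by somite number shows these values beside the sex-linked genes and globins.

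**Figure D5:**
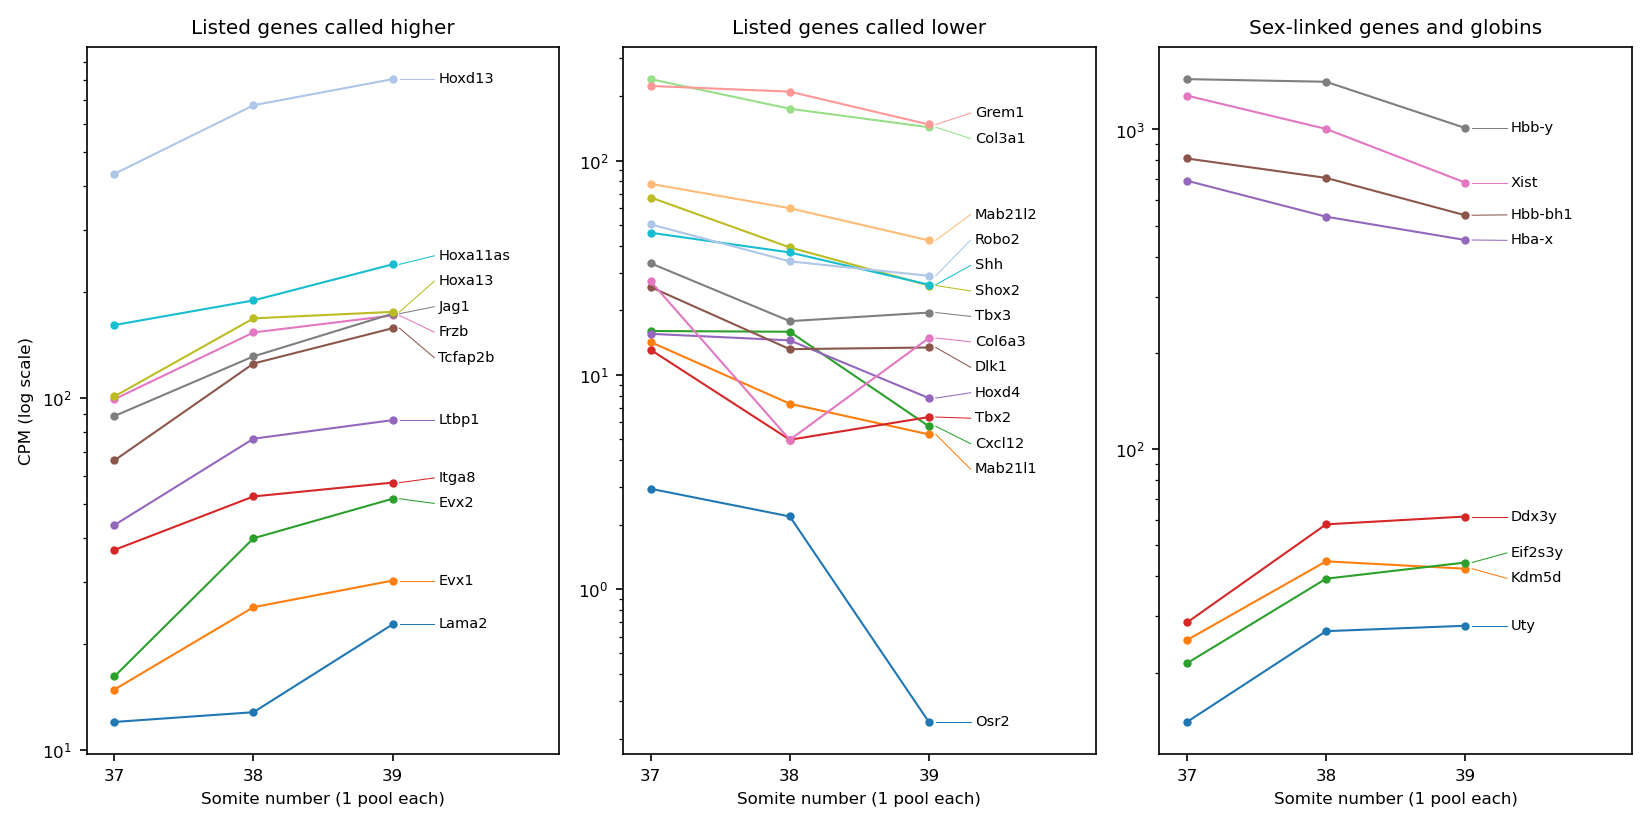
CPM (log axis) against somite number, with 1 pool at each stage, for 11 of the 12 listed genes called higher, the 14 called lower, and the 5 sex-linked genes with the 3 highest globins. Hoxd13 and Evx2 rise and Shox2 and Shh decline from pool to pool, while Col6a3 and Tbx2 are lowest at 38 somites, and the Y-linked genes are lowest and Xist highest at 37 somites.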

How the data were processed

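RNA was extracted from pooled distal tips of 2 embryos, and polyA libraries were made with the unstranded TruSeq RNA v2 kit, per the labels. Reads went through cutadapt 1.2.1, RSEM 1.17 and an unstated version of edgeR on build NCBIM37, per the submitters' processing notes. The deposited table gives CPM, which the authors scaled to an effective library size. In every library 100% of the values lay within 0.001 of a whole read, so reads were recovered, and edgeR's quasi-likelihood test on them called 129 genes with somite number.

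Control libraries were taken by label. A few listed genes are not reported here by name and stay in the counts. Levels are means over 3 pools. Per-kilobase values use lengths from GENCODE M21 by gene identifier (11751 of 12065 matched); that annotation is of a later build, and no coordinate of the files was used. Slopes came from limma 3.58.1 (eBayes with trend, R 4.3.3) on log2(CPM + 1), with prior degrees of freedom estimated as infinite; edgeR 4.0.16 and DESeq2 1.42.0 were alternatives. The fit was also run on simulated counts. These gave all genes the same biological spread and no pool difference beyond stage and depth, so they cannot test for pool effects. Nothing in the labels says more of the pools. Each limma SE and p rests on a spread between these pools taken over genes of like level, not on the gene's own spread. Near-identical copies (blastn 2.17.0 alignments of 97% identity, 100 bases or longer and covering 50% of whichever transcript was shorter) were sought for the leading and listed genes, and values of genes with a copy are uncertain; of those named these include Eef1a1, Hspa8, Ptma, Npm1, mt-Co1, mt-Co2, mt-Co3, Hand2, Smo, Notch1, Nid1, Krt5, Sp6, Tgif2, Etv5 and Xist. Overlapping genes of the same locus and readthrough transcripts also counted as copies, so a copy need not lie elsewhere in the genome. Tables were handled with pandas 2.3.3 and numpy 2.4.6 in Python 3.11.15.

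The genes named were the 10 highest by CPM, up to 6 of each list by CPM per kilobase with the member of highest CV, the 10 highest CVs, the 5 smallest p in each direction, and the leading markers; other listed genes called, Mest and H19 were named after their values were seen. The members and lists were chosen with earlier results of these data known. Each scaling, length, pseudocount, filter, left-out pool and tool was varied in turn.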

Additional observations from a re-analysis of the deposited data

How the results depend on the processing

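The number of genes of at least 100 CPM (2464) ranged from 2325, when each pool had to reach that level, to 2469, and the median CV between pools (6.54%) from 4.60% without the 38-somite pool to 7.65% with no filter. Genes called with somite number numbered 128, and 99 to 130 with a pseudocount of 0.1 or 5, a filter at 5 CPM, or edgeR on reads. They fell to 17 with DESeq2 on reads and to 43 over all 6 libraries with genotype as a term. Of the 128, 16 were among the DESeq2 calls and 33 among those of all 6 libraries, and 125 kept their sign there; the cause was not tested. Of the 58 gene slopes recomputed, 0 reversed sign under the alternatives run. All were of genes called in the main fit, and each alternative holds the same 3 control pools. Kept signs are therefore no independent support. Leaving out a pool leaves 2 points for a slope and no residual degree of freedom, so it gave no test. Mean CPM moved by less than the SD between pools in all 473 genes recomputed under each scaling. Leaving out a pool cannot move a mean of 3 by more than that SD, so the same outcome there was fixed in advance. Per-kilobase values moved by more than that SD in 261 of 472 genes with joined exons and in 339 with the median transcript, and the leading gene was the same in 20 and in 16 of the 29 lists. No paired analysis was possible because no groups were compared, and each replicate number is a stage of its own. Depth limits genes near 3 reads, such as Osr2.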
